A study of Mus musculus with 18 samples.

Results

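Forelimb bud enriched mRNAs were taken here as the genes whose RNA-Seq signal was far higher in the forelimb buds (FL) than in the neural tubes (NT) of the same stage. A gene was a member if its mean log2(normalized reads + 1) over 3 FL RNA-Seq libraries was at least 3, or 8-fold, above the mean over 3 NT RNA-Seq libraries and if its mean FL RNA-Seq signal was at least 300 normalized reads. The rule found 97 members among the 11231 genes of the NT and FL table, and all 97 were also held in the mesoderm table of 12064 genes. NT and FL were microdissected from wild-type FVB mouse embryos at E11.5, both tissues from the same embryos, with 3 replicates of RNA-Seq and of Ribo-Seq each. The mesoderm was sorted at E11.5 as GFP+ cells of R26-mTmGflox/+ embryos that also carried Tg(T-cre)1LWD/J/+, in which Cre driven by T recombines the reporter in descendants of the primitive streak, and it also had 3 replicates of each library type. The number of embryos in each library is not given in the sources used here. NT and FL are whole tissues, so a lower signal from fewer cells of a type and one from less RNA per cell cannot be told apart.

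The limb bud grows out as mesenchyme under a sheet of ectoderm. Hox factors of the *Hoxa* and *Hoxd* clusters set its pattern along the axes, Wnt, FGF and receptor tyrosine kinase signals drive its outgrowth, and its mesenchyme lays down the matrix in which cartilage, tendon and connective tissue form. Ribo-Seq reads, called ribosome-protected fragments (RPFs), count ribosomes on the coding sequence (CDS), whereas RNA-Seq reads count the mRNA, and the log2 ratio of RPF to RNA is the translation efficiency (TE). A tissue can therefore make more of a protein by holding more of its mRNA, by loading more ribosomes on each mRNA, or both. The values below are reads that the authors normalized to the effective library size, and log2 TE is given relative to the median of all genes in the same tissue, where 0 is the median.

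Since RNA-Seq of NT and FL chose the members, the RNA difference is a description. It ran from 3.01 to 6.50 on the log2 scale with a median of 3.72, which is 13.2-fold. The members just inside the limit were *Snai1* at 3.01, *Amot* at 3.03 and uc007dzo.2 at 3.04, and the genes just outside were uc007qgz.1 at 2.99, uc008pyo.2 at 2.98 and uc007hzk.1 at 2.98. Of 101 genes with an RNA difference of at least 3, 4 were left out for a mean FL RNA-Seq signal under 300, the nearest of which was *Pmaip1* at 253.9, while the weakest member was *Lox* at 350.8. The tables carry UCSC identifiers, and a symbol was at hand for 23 of the 97 members (23.7%), against 29.2% of all genes. The symbols came from the study's own tables of genes grouped by TE, and the named members are not a fair sample: their median log2 TE in FL was -0.62, against 0.62 for the 74 members without a symbol. Every count below is therefore over the 97 members, and the named genes are examples.

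The replicate 3 Ribo-Seq libraries stood apart. Over all genes, FL Ribo-Seq replicates 1 and 2 correlated with r = 0.976, but with replicate 3 at 0.886 and 0.896, and NT Ribo-Seq replicates 1 and 2 correlated with r = 0.989, but with replicate 3 at 0.933 and 0.934. FL Ribo-Seq replicate 3 also lay closer to its own RNA-Seq library (r = 0.908) than replicates 1 and 2 did (0.729 and 0.740), and closer to NT Ribo-Seq replicate 1 (0.823 against 0.707 and 0.701). To a lesser degree NT RNA-Seq replicate 1 stood apart too. It correlated with NT RNA-Seq replicates 2 and 3 at 0.946 and 0.949, and these with each other at 0.970. NT values of TE therefore also depend on this library. Depth on the genes of the table was 12967893 to 17231298 reads in FL Ribo-Seq, 16710643 to 31993255 in NT Ribo-Seq and 24555103 to 33061460 in RNA-Seq. Neural tube marker genes followed the tissue labels. The summed RNA-Seq signal of 8 of them (of 18 listed) was 79427 to 131925 in NT and 11017 to 11823 in FL. That of the 7 limb mesenchyme markers with a symbol (of 14 listed) was 3726 to 4192 in NT and 31566 to 37907 in FL. Of these 7, 3 are members, chosen on these same RNA-Seq values, so the limb sum is a description and no check of the labels. For other cells of the bud, the RNA-Seq sums in NT and FL were 575 to 3085 and 3098 to 3690 for 6 ectoderm markers, 1587 to 1833 and 4326 to 5486 for 5 myogenic markers, 8709 to 8980 and 7485 to 9610 for 17 endothelial markers, 12924 to 21292 and 15467 to 26258 for 11 erythroid markers, 2092 to 3137 and 1956 to 2036 for 15 leukocyte markers, and 2577 to 4077 and 2046 to 2151 for 3 Schwann and neural crest markers. In Ribo-Seq the erythroid markers summed to 51645 to 68304 in NT and 88717 to 170378 in FL. The part of these cells in the results was not tested.

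All 97 members had higher RPFs in FL than in NT. The Ribo-Seq libraries did not enter the rule, although they were made from cells of the same dissections. The RPF difference ran from 1.46 to 6.50 on the log2 scale (2.74- to 90.6-fold) with a median of 3.59 (12.0-fold), and for all 97 members the lowest FL library lay above the highest NT library, as it did for 21.5% of all genes. By limma on log2(normalized reads + 1), 97 members were called higher in FL at a Benjamini-Hochberg adjusted p under 0.05 and at least 2-fold, where 14.9% of all genes were called higher in FL. The largest adjusted p among the members was 0.0114, for *Kcnj2*. Without replicate 3 of both tissues, 94 of the 97 members were called (24.1% of all genes), and *Piezo2*, *Kcnj2* and *Col27a1* no longer passed, with log2 RPF differences of 0.87, 1.00 and 0.90.

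Across the members, the RPF difference followed the RNA difference with r = 0.76 (Spearman's rho = 0.68, n = 97), which is a description, since both were measured in the same dissections. Of the 97 members, 80 had an RPF difference within 2-fold of their RNA difference, as did 79.6% of all genes. In 13 the RPF difference was at least 2-fold smaller and in 4 at least 2-fold larger, which is the difference in TE taken up below.

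**Figure D1:**
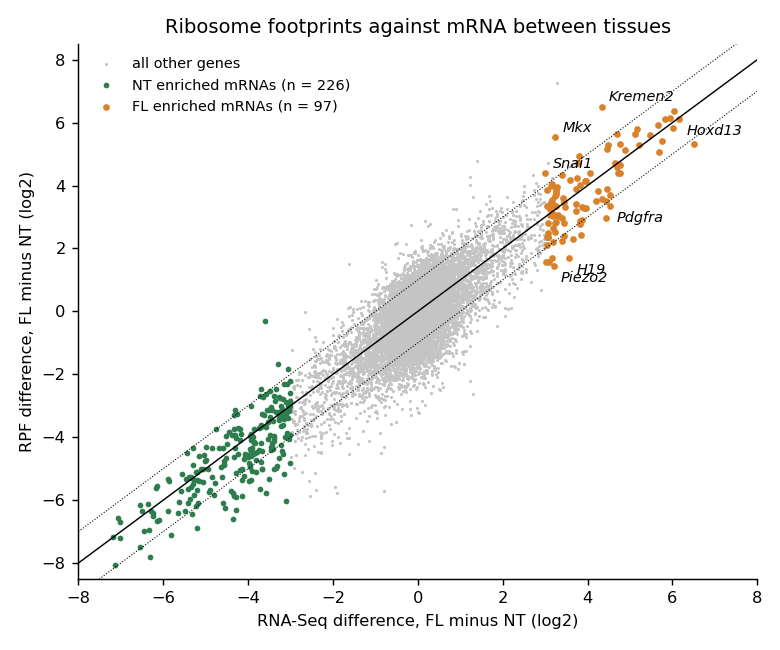
Difference between FL and NT in RPFs (vertical axis, log2) against the difference in mRNA (horizontal axis, log2) for every gene of the table, each point being the mean of 3 libraries a group. Members are orange, the 226 NT enriched mRNAs chosen by the mirrored rule are green, the solid line marks equal differences and the dotted lines 2-fold from it; all 97 members lie above 1.4 on the vertical axis, and 80 lie between the dotted lines, where 79.6% of all genes lie.

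Of 59 limb patterning transcription factors listed, 12 had a symbol in the table and 4 were members, *Hoxd13*, *Hoxd11*, *Snai1* and *Mkx*. RPFs were called higher in FL for 6 of the 12, the 4 members included, and lower for 1. Over all genes, 14.9% were called higher and 17.8% lower. As the members were chosen for higher RNA in FL, the rule set part of this count and of those for the lists below, and nothing is read from them. These lists, too, hold only genes with a symbol. *Hoxd13*, the most 5′ gene of the *Hoxd* cluster and a patterning factor of the digits, lies on mouse chromosome 2 from 74668310 to 74671599 (GRCm38). Its RNA-Seq signal was 54.6, 153 and 192 normalized reads in NT replicates 1, 2 and 3, and 9377, 9600 and 6659 in FL. RPFs were 51.3, 96.0 and 84.1 in NT against 5896, 6729 and 3724 in FL. The tissues did not overlap in RPFs, nor in RNA-Seq, on which the gene was chosen. The mRNA and RPFs differed by nearly the same amount, 6.16 and 6.13 ± 0.41 (SE) on the log2 scale. For the RPFs the adjusted p was 1.1e-07 by limma. *Hoxd11*, which acts in the forearm and hand, had an RPF difference of 3.32 ± 0.32 (SE) against an RNA difference of 3.86, with RPFs of 88.9, 142 and 283 in NT and 1442, 1694 and 1484 in FL.

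*Snai1*, a zinc finger repressor of epithelial genes on chromosome 2 from 167538195 to 167542814, had the smallest RNA difference of the members but not a small RPF difference. In NT its RNA-Seq signal was 195, 164 and 119 normalized reads and in FL 1347, 1193 and 1252. RPFs were 254, 150 and 436 in NT against 6601, 7390 and 3205 in FL. The RPF difference was 4.39 ± 0.38 (SE, adjusted p = 1.1e-06 by limma), against 3.01 for its mRNA. *Mkx*, a homeobox factor of tendon, had RPFs of 16.6, 16.3 and 5.80 in NT and 864, 680 and 351 in FL, 46.4-fold, for an mRNA that differed 9.46-fold. The NT values of *Mkx* rest on 23, 20 and 4 reads, so its RPF difference of 5.54 ± 0.43 (SE) is set by few reads on the NT side.

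Among 52 limb signals and receptors listed, 22 had a symbol and 3 were members, *Pdgfra*, *Wnt6* and *Ror2*. RPFs were called higher in FL for 10 of the 22, the 3 members included, and lower for 6, where 14.9% of all genes were called higher and 17.8% lower. *Pdgfra*, the PDGF receptor tyrosine kinase of mesenchyme on chromosome 5 from 75152292 to 75198215, had an RNA-Seq signal of 438, 774 and 773 normalized reads in NT and 15675, 15433 and 13108 in FL. RPFs were 1095, 1065 and 970 in NT against 6897, 7313 and 23601 in FL. The RNA-Seq libraries of FL were alike, whereas FL Ribo-Seq replicate 3 was over 3 times as high as replicates 1 and 2. The RPF difference was 3.35 ± 0.39 (SE, adjusted p = 1.7e-05 by limma) with all libraries and 2.72 without replicate 3 of both tissues, against an RNA difference of 4.52.

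*Wnt6*, a Wnt ligand of surface ectoderm, had RPFs of 43.4, 30.9 and 60.9 in NT and 1424, 1579 and 1091 in FL. Its RPFs differed 30.4-fold (adjusted p = 2.8e-08 by limma) and its mRNA 13.9-fold, from 66.6, 54.0 and 60.4 normalized reads in NT to 919, 722 and 918 in FL. *Wnt6* is also one of the ectoderm markers above, whose RNA-Seq sum was lower in NT. The highest NT library, at 3085, was close to the lowest FL library, at 3098. For *Ror2*, a receptor for Wnt5a needed for limb growth, the order was the opposite, with a 5.21-fold difference in RPFs (adjusted p = 9.4e-06 by limma) and an 8.29-fold difference in mRNA. *Kremen2*, a receptor that acts with Dkk proteins against Wnt signalling, stood outside the list but was among the 5 largest RNA differences of the named members. It had the largest RPF difference of all 97 members, 6.50 ± 0.58 (SE, adjusted p = 1.4e-06 by limma). Its RPFs were 6.51, 7.32 and 50.7 normalized reads in NT, from 9, 9 and 35 reads, and 1283, 1839 and 1018 in FL. The groups did not overlap, but NT replicate 3 stood far above the other NT libraries.

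Of 56 extracellular matrix genes listed, 22 had a symbol and 4 were members, *Sned1*, *Ltbp1*, *Lox* and *Col27a1*. RPFs were called higher in FL for 10 of the 22, the 4 members included, and lower for 1, where 14.9% of all genes were called higher and 17.8% lower. *Col27a1*, on chromosome 4 from 63214004 to 63334991, encodes a fibrillar collagen of developing cartilage. Its RNA-Seq signal was 460, 456 and 480 normalized reads in NT and 4010, 4440 and 3604 in FL. RPFs were 215, 212 and 180 in NT against 350, 458 and 1399 in FL. The NT libraries and the RNA-Seq libraries of FL were close to each other, and the RPF difference of 1.59 ± 0.38 (SE, adjusted p = 0.00506 by limma) drew mainly on FL replicate 3, without which it was 0.98. *Sned1*, a matrix glycoprotein, showed the same split, with RPFs of 161, 190 and 115 in NT and 771, 853 and 2611 in FL, as did *Ltbp1*, which binds latent TGF-β in the matrix, with 1060, 1178 and 1326 in NT and 3773, 4414 and 11978 in FL. *Lox*, the enzyme that crosslinks collagen and elastin, ran the other way, with RPFs of 51.3, 66.7 and 103 in NT and 1137, 1405 and 690 in FL. Its RPFs differed 14.4-fold (adjusted p = 1.1e-06 by limma) and its mRNA 9.55-fold.

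The smallest RPF differences were those of *Piezo2*, *Amot* and *Col27a1*. *Piezo2*, a mechanically gated channel, had RPFs of 306, 290 and 196 normalized reads in NT and 473, 633 and 1205 in FL, a 2.74-fold difference (adjusted p = 0.00313 by limma) where its mRNA differed 9.23-fold. *Amot*, an angiomotin that binds YAP, had RPFs of 1974, 1803 and 1539 in NT and 3993, 5024 and 7325 in FL, 2.99-fold, while its mRNA went from 922, 967 and 1204 to 8646, 8897 and 7604, 8.16-fold. For both genes the RPFs of NT and FL did not overlap, and FL Ribo-Seq replicate 3 was the highest. *H19*, an imprinted long non-coding RNA with no CDS in the annotation used here, lies on chromosome 7 from 142575529 to 142578143. The stretch on which its reads were counted is not given in the sources used here. Its RNA-Seq signal was 2367, 2058 and 3157 normalized reads in NT and 29865, 30946 and 27586 in FL, and it had RPFs of 432, 575 and 699 in NT against 1520, 1415 and 2832 in FL. Among the other large RNA differences, *Ddr2*, a collagen receptor kinase, had an RPF difference of 3.51 ± 0.40 (SE) against 4.43 for its mRNA. The remaining named members fell on both sides of equality. The RPF difference was the larger for *Tpm2*, 4.72 against 3.76 for its mRNA, and *Dusp9*, 3.81 against 3.27, although the mRNA of *Dusp9* in NT was spread over 614, 141 and 47.0 normalized reads. It was the smaller for the receptor tyrosine kinase *Mertk* (3.29 against 3.96), *Mtmr11* (2.49 against 3.06), *BC067074* (2.44 against 3.85) and *Kcnj2* (1.70 against 3.16), and for *Scarf2*, with 11.4-fold against 18.3-fold.

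The 74 members without a symbol had RPF differences of 2.12 to 6.38 on the log2 scale and differences in log2 TE of -1.19 to 0.95. The extremes of the TE difference lay among the named genes. Symbols came from tables of genes grouped by TE, so nothing is read from this. The largest RNA difference of all, 6.50, was that of uc009umk.2, whose RNA-Seq signal was 49.3, 333 and 269 normalized reads in NT against 15583, 15779 and 13801 in FL. RPFs were 294, 302 and 144 in NT against 5697, 6219 and 22747 in FL, a difference of 5.31 ± 0.65 (SE, adjusted p = 2.6e-05 by limma). The tissues did not overlap in RPFs, nor in RNA-Seq, on which it was chosen, and FL Ribo-Seq replicate 3 was again the highest library.

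**Figure D2:**
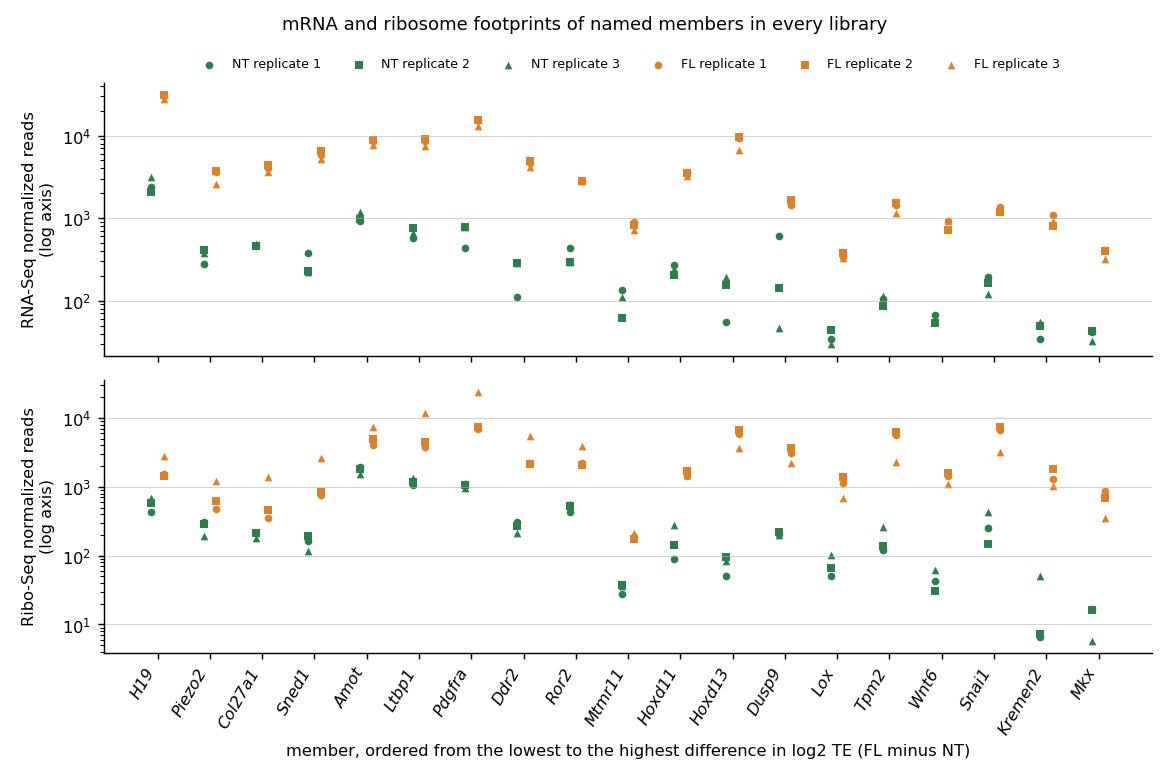
Normalized reads (log axes) of the named members in each RNA-Seq library (top) and each Ribo-Seq library (bottom), with NT in green, FL in orange and replicates 1, 2 and 3 as circles, squares and triangles, ordered by the difference in log2 TE between FL and NT. FL and NT are apart for every gene in Ribo-Seq, and also in RNA-Seq, on which the members were chosen. FL Ribo-Seq replicate 3 is the highest FL library at the left end, as for *Pdgfra* with 23601, and the lowest at the right end, as for *Snai1* with 3205.

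TE of the members spanned much of the range of other genes, with a median above theirs in both tissues. As RNA-Seq of both tissues chose the members, TE in FL and NT is given as a description. In FL, log2 TE ran from -4.01 to 2.09 with a median of 0.40 (quartiles -0.48 and 0.97, n = 97), against quartiles of -0.96 and 0.82 over all genes. It was above the median of all genes in all 3 replicates for 50 of the 97 members, where 37.8% of all genes were. In NT, the median was 0.54 (quartiles -0.15 and 0.81), and 46 of the 97 members were above 0 in all 3 replicates, against 30.2% of all genes. TE at least 3-fold below the median was found for 6 members in FL, where 13.5% of all genes were that low, and for 3 in NT (4.61% of all genes), and TE at least 3-fold above it for 5 members in FL (6.31% of all genes) and 2 in NT (0.436% of all genes). Per replicate, the median of the members was 0.24, 0.42 and 0.49 in FL and 0.37, 0.22 and 0.70 in NT, so it lay above 0 in each of the 6 pairs of libraries.

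**Figure D3:**
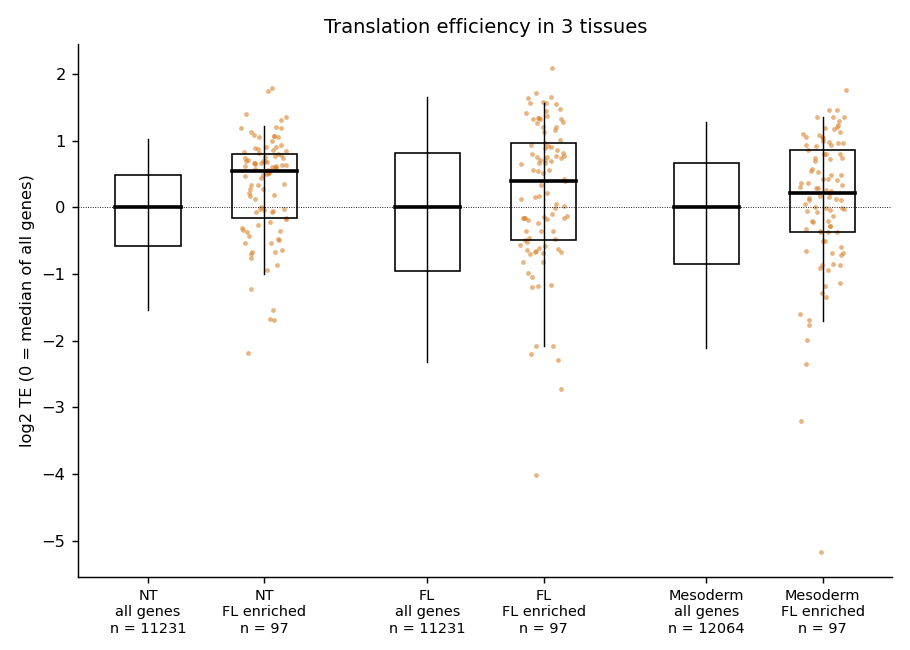
Log2 TE relative to the median of all genes in NT, FL and the mesoderm, for all genes (left box of each pair) and for the 97 members (right box with orange points, 1 a gene). Boxes span the quartiles, thick lines are medians and thin lines run from the 5th to the 95th percentile; the medians of the members are 0.54, 0.40 and 0.21.

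The 5 named members at the top of the order in FL had CDSs of 264 to 452 codons. *Snai1* had the highest log2 TE of all members in FL, 2.09 ± 0.66 (SD, n = 3), followed among the named genes by *Tpm2*, a tropomyosin of muscle and fibroblasts, at 1.65 ± 0.59, *Lox* at 1.55 ± 0.44, *Dusp9*, a MAP kinase phosphatase, at 0.92 ± 0.36, and *Wnt6* at 0.67 ± 0.44. Next to these stood uc012fxo.1 at 1.72, without a symbol. At the bottom were *H19* at -4.01 ± 0.63, *Col27a1* at -2.72 ± 1.18, *Sned1* at -2.29 ± 1.12, *Piezo2* at -2.19 ± 0.97 and *Mtmr11*, a myotubularin-related protein, at -2.08 ± 0.28. The SDs of *Col27a1*, *Sned1* and *Piezo2* turned on 1 library. FL replicate 3 gave -1.37 for *Col27a1*, where replicates 1 and 2 gave -3.52 and -3.28, and -1.10 for *Piezo2*, where they gave -2.93 and -2.55.

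The bases around the start codon are shown for 7 of the named coding members at both ends of this order, because ribosomes choose the start there. Each runs 5′ to 3′ from 9 bases before the ATG, as annotated on the isoform with the longest CDS in GENCODE M21 (GRCm38). The ATG is in capitals, and where the motif ANNATGG or GNNATGG is present, its fixed bases are in capitals too. Those of *Lox* and *Piezo2* are not shown.
Snai1: ctggccaacATGccgcgctc
Tpm2: accgcaGccATGGacgccat
Dusp9: tgcgcgAccATGGagagtct
Wnt6: gctctcaggATGctgccgcc
Mtmr11: gccagggaaATGtggtgggg
Sned1: atcccggcgATGcgcctcgg
Col27a1: gggcctGccATGGgcacggg

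On the transcript strand, the motif stood at the start codon of 11 of 20 named members with enough sequence before the ATG, against 41.0% of 20410 coding genes of the annotation. *Snai1* and *Wnt6* at the top and *Sned1* and *Mtmr11* at the bottom lacked it, while *Tpm2*, *Dusp9* and *Col27a1* held it, so it was found and missing at both ends of the order.

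The difference in log2 TE, FL minus NT, had a median of -0.12 (quartiles -0.68 and 0.33), and ran from -1.86 to 2.30. It was at least 2-fold lower in FL for 13 members, where 12.8% of all genes were, and at least 2-fold higher for 4, where 7.64% of all genes were. All 4 of the latter and 9 of the former had a symbol, but the symbols came from tables of genes grouped by TE. By the limma interaction between library type and tissue (adjusted p under 0.2 and at least 2-fold), 2 members were called higher in NT, where 0.276% of all genes were, and 0 were called higher in FL, where 0.125% of all genes were. At an unadjusted p under 0.05 and 2-fold, 4 members were higher in FL and 9 higher in NT, where 5.05% and 7.53% of all genes were. By edgeR, 0 members were called in either direction, where 0.16% of all genes were called higher in FL and 0.187% higher in NT. By DESeq2, 3 were called higher in FL and 3 higher in NT, where 5.08% and 2.55% of all genes were. As the RNA difference that chose the members is part of this contrast, nothing is read from these counts.

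The 2 members called higher in NT were *H19*, with a difference of -1.86 ± 0.39 (SE), and *Amot*, with -1.45 ± 0.33. The count fell from 2 to 0 with edgeR, with the replicate number as a block, and without any 1 of FL replicates 1 and 2 and NT replicates 1 and 2. For *Amot*, the NT replicates gave a log2 TE of 1.07, 0.87 and 0.32 and the FL replicates -1.12, -0.83 and -0.06, above the median of all genes in every NT replicate and below it in every FL replicate. The largest differences towards FL were those of *Mkx*, 2.30 ± 0.61, from -1.32, -1.37 and -2.32 in NT to 1.08, 0.75 and 0.12 in FL, and of *Kremen2*, 2.17 ± 0.82, from -2.25, -2.64 and -0.16 in NT to 0.24, 1.17 and 0.14 in FL. Both rest on 4 to 35 reads in each NT Ribo-Seq library. *Snai1* had a difference of 1.38 ± 0.54 and *Wnt6* of 1.13 ± 0.40. Lower in FL were also *Piezo2* (-1.75 ± 0.46), *Sned1* (-1.46 ± 0.56), *Ltbp1* (-1.36 ± 0.48) and *Pdgfra* (-1.17 ± 0.55). *Hoxd13*, with the largest RNA difference of the named members, had nearly the same TE in both tissues, -0.67 ± 0.55 (SD) in NT and -0.68 ± 0.16 in FL.

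These differences depended on replicate 3. Without it in both tissues, 21 members were called higher in FL and 20 higher in NT, where 20.7% and 22.3% of all genes were, and the median difference was -0.04. The difference changed sign for 12 of the 97 members, a count for which the share of all genes was not taken. None of the 12 had a symbol, but the symbols came from tables of genes grouped by TE. The members differed among themselves in how FL replicate 3 stood to replicates 1 and 2. The TE of replicate 3 minus the mean of the others had a median of 0.04 but ran from -1.23 to 2.12. It was 2.03 for *Col27a1*, 1.98 for *Pdgfra*, 1.94 for *Sned1* and 1.78 for *Ltbp1*, and -1.11 for *Snai1*, -1.03 for *Tpm2*, -0.79 for *Mkx* and -0.76 for *Lox*.

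Among the named members, those with long CDSs had the lower TE in FL. CDS length was at hand for 22 of the 97 members (22.7%), so a check over the members is void, and the values that follow describe the 22 named coding members, from *Snai1* with 264 codons to *Piezo2* with 2824. Over them, log2 CDS length and the difference in log2 TE between FL and NT correlated with r = -0.77, and over 3090 genes of the table with a symbol and a length with r = -0.76, though these genes too came from tables chosen on TE. By library, r for the 22 members was -0.81, -0.80 and -0.43 in FL replicates 1, 2 and 3, against -0.73, -0.74 and -0.49 for the 3090 genes. In NT it was 0.12, 0.14 and -0.38, against 0.016, -0.29 and -0.47. In the mesoderm it was -0.49, -0.59 and -0.42, against -0.50, -0.65 and -0.55 over 3042 genes held there. The excess of FL replicate 3 over replicates 1 and 2 correlated with log2 CDS length at r = 0.85 in the 22 members and 0.76 in the 3090 genes. The 5 named members with the most negative change in TE among coding genes, *Piezo2*, *Col27a1*, *Sned1*, *Kcnj2* and *Amot*, had 2824, 1845, 1403, 428 and 1126 codons, so *Kcnj2*, an inward rectifier potassium channel, was short for its place in the order. The 4 with the most positive change, *Mkx*, *Kremen2*, *Snai1* and *Wnt6*, had 354, 461, 264 and 364 codons. The part of CDS length in the TE differences was not tested.

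**Figure D4:**
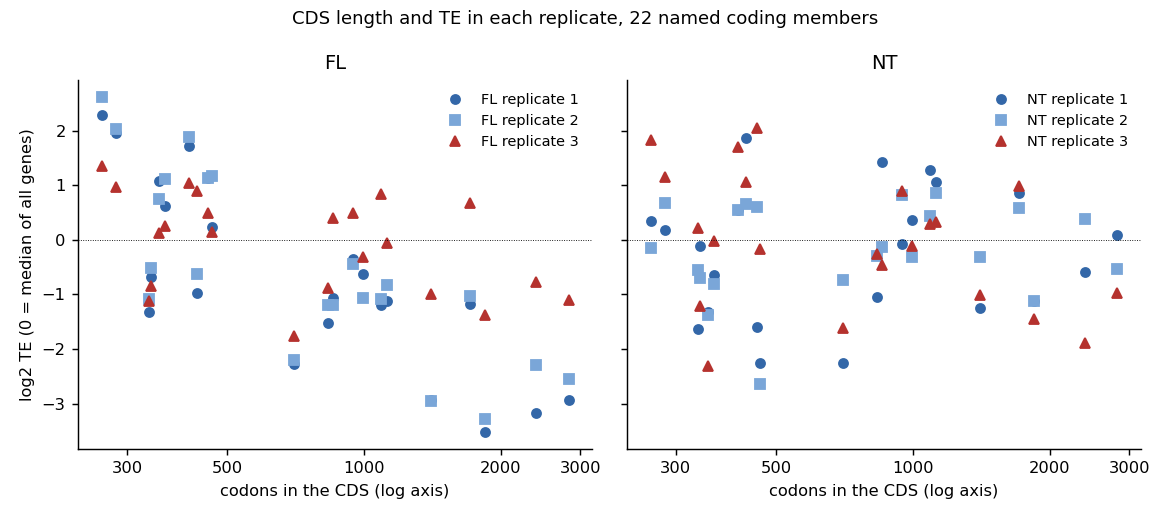
Log2 TE in each replicate (vertical axis, 0 is the median of all genes) against the number of codons in the CDS (log axis) for the 22 named coding members, in FL (left) and NT (right). In FL, replicates 1 and 2 fall from 2.29 and 2.63 for *Snai1* with 264 codons to -2.93 and -2.55 for *Piezo2* with 2824 codons, whereas replicate 3 spans a narrower range, from 1.35 to -1.10 for the same genes.

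The mesoderm libraries did not enter the rule and give a further measure of how ribosomes load on the members. Per the paper, the marked lineages include the lateral plate mesoderm of the limbs, so the mesoderm and FL share cell types. Depth was 11000015 to 16802829 reads in Ribo-Seq and 38054003 to 50136443 in RNA-Seq. Log2 TE of the 97 members ran from -5.17 to 1.77, with a median of 0.21 (quartiles -0.36 and 0.86, against -0.85 and 0.66 over all genes of the NT and FL table held there). By limma with replicates blocked, 7 members were TE-low (adjusted p under 0.05 and at least 3-fold below the median), where 10.9% of all genes were, and 1 was TE-high, where 1.17% of all genes were. With no fold threshold, 38 members lay above the median at an adjusted p under 0.05, where 32% of all genes did, and 22 below it, where 34.2% did. Log2 TE was above 0 in all 3 mesoderm replicates for 47 members, against 39.5% of all genes. The shares past 3-fold were near those of all genes. All 8 members past 3-fold had a symbol, but the symbols came from tables of genes grouped by TE.

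*H19* was the lowest. Its RNA-Seq signal in the mesoderm was 24492, 36527 and 37724 normalized reads and its RPFs were 359, 909 and 2355, so RPFs were a small part of a large RNA signal in each replicate, and log2 TE was -5.17 ± 0.31 (SE, adjusted p = 1.7e-06 by limma). *Col27a1* had an RNA-Seq signal of 3450, 3181 and 5291 and RPFs of 335, 214 and 1125, with a log2 TE of -3.20 ± 0.27 (adjusted p = 5.7e-06 by limma). *Mtmr11* followed at -2.34 ± 0.18, *Sned1* at -1.99 ± 0.17 and *Hoxd11* at -1.77 ± 0.18. The other 2 TE-low members were *Piezo2* at -1.69 ± 0.18 and *Scarf2*, a scavenger receptor-like membrane protein, at -1.60 ± 0.18. *Hoxd13* at -1.34 ± 0.18 missed 3-fold. Of the 7, *H19*, *Col27a1*, *Sned1*, *Mtmr11* and *Piezo2* were also the 5 lowest of the named members in FL.

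*Lox* was the TE-high member. Its RNA-Seq signal in the mesoderm was 175, 304 and 468 normalized reads and its RPFs were 590, 1257 and 1425, above the RNA-Seq signal in every replicate, and log2 TE was 1.77 ± 0.18 (SE, adjusted p = 1.6e-05 by limma). *Snai1* at 1.23 ± 0.18 and *Tpm2* at 1.06 ± 0.20 were above the median but under 3-fold. *Kcnj2* was at 1.00 ± 0.21 in the mesoderm and at 1.20 ± 0.62 (SD) in NT, against -0.24 ± 1.00 in FL, where replicate 3 gave 0.90 and replicates 1 and 2 gave -0.98 and -0.63. *Mkx* and *Kremen2*, which had a low TE in NT, were at 0.11 ± 0.20 and -0.28 ± 0.21 (SE) in the mesoderm.

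The order of the members by TE was much the same in FL and the mesoderm, with r = 0.91 (Spearman's rho = 0.87, n = 97), while NT and the mesoderm gave r = 0.77 (rho = 0.77) and FL and NT r = 0.69 (rho = 0.68). These are descriptions over genes. The mesoderm and FL share cell types of the limb, and the part of this in their closer order was not tested. In the NT enriched mRNAs, taken up below, NT was the closer to the mesoderm, with r = 0.90 against 0.85 for FL (n = 220). In each set the closer tissue was thus the one in which the mRNAs were chosen to be high. Over the 11054 genes held in both tables r was 0.93 for FL and 0.87 for NT with the mesoderm, and over all 11231 genes it was 0.78 for FL with NT, each above the value of the members. Taken 1 replicate at a time, the TE of the members in FL correlated with the mean in the mesoderm at 0.85, 0.83 and 0.93 for replicates 1, 2 and 3, and that in NT at 0.59, 0.60 and 0.64. TE of the members also repeated less well in NT. Between replicates 1 and 2, 1 and 3, and 2 and 3, r was 0.52, 0.31 and 0.51 in NT. It was 0.98, 0.74 and 0.72 in FL and 0.89, 0.94 and 0.91 in the mesoderm. The lower r of NT with the other tissues is therefore not read as a difference between tissues.

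**Figure D5:**
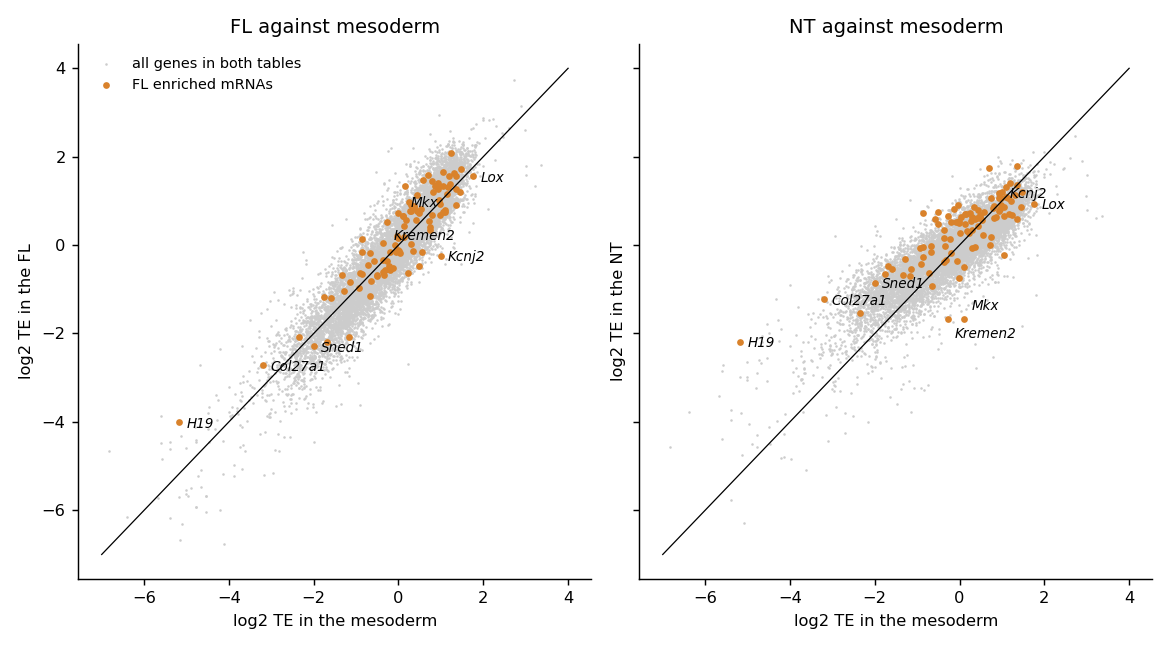
Log2 TE in FL (left) and NT (right) against log2 TE in the mesoderm, each relative to the median of all genes in its tissue, for all genes in both tables (grey) and the 97 members (orange), with the line of equal values. The members follow the line closely in FL (r = 0.91) and less so in NT (r = 0.77), where *Kremen2* and *Mkx* lie below it and *H19* above it. Between single NT replicates, TE of the members correlated at only 0.31 to 0.52.

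The mirrored rule, with RNA at least 8-fold higher in NT and a mean NT RNA-Seq signal of at least 300, found 226 NT enriched mRNAs, which serve here as a comparison. Their median RPF difference, FL minus NT, was -4.53 for a median RNA difference of -3.98, so the RPF difference was the larger of the pair, whereas in the forelimb bud enriched mRNAs it was slightly the smaller, 3.59 against 3.72. Taken gene by gene, the median difference in log2 TE, FL minus NT, was -0.19 for the NT enriched and -0.12 for the forelimb bud enriched mRNAs. Both sets thus had the same sign, where the median over all genes was 0.009. Median log2 TE was 0.26 in NT and -0.05 in FL for the NT enriched mRNAs, against 0.54 and 0.40 for the forelimb bud enriched mRNAs, and -0.01 against 0.21 in the mesoderm. TE of the NT enriched mRNAs in the mesoderm correlated with that in NT at r = 0.90 and with that in FL at 0.85. For the forelimb bud enriched mRNAs these values were 0.77 and 0.91. The groups were chosen on opposite ends of the same RNA-Seq values, and no test was made between them.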

How the data were processed

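RNA-Seq and Ribo-Seq of NT, FL and mesoderm (3 biological replicates each, 18 libraries) were analysed. Per the study's methods and processing notes, the authors trimmed adapters (cutadapt), aligned reads with Bowtie2 to mm10 transcripts (1 canonical isoform for each UCSC known gene), assigned RPFs by the A site, counted unique reads over each CDS, leaving out its first 15 codons and the last 5, and divided by the DESeq effective library size. The deposited signal values are these normalized reads. The 2 tables were normalized separately, and tests were run within 1 table. In all libraries 100% of values were whole multiples of 1 step (within 0.1 of a read), which gave the reads for edgeR and DESeq2. Adding 1 before the logarithm pulls genes with few reads towards equality.

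Values were transformed to log2(normalized reads + 1) and fitted over all genes by limma 3.58.1 in R 4.3.3, with a variance trend and Benjamini-Hochberg adjustment, without a block between tissues and with the replicate number as a block in the mesoderm. The alternatives were pseudocounts of 0.1 and 8, a mean of at least 100, edgeR 4.0.16 (quasi-likelihood, TMM), DESeq2 1.42.0, the block, and each replicate left out. Fits were tested on simulated data with large changes and replicates of equal spread. That test does not cover smaller differences in TE or libraries that stand apart, as in these data. Named genes were members with a symbol that were in a role list, among the 5 highest or lowest by TE in FL (mean FL RPFs of at least 100), the 5 largest RNA differences, the 3 nearest the limit, the 3 smallest RPF differences, or the 5 largest TE-low or TE-high calls; *Scarf2*, *Kcnj2*, *Mertk*, *BC067074* and *Pmaip1* were added after their values were seen. Members and lists were chosen with earlier results of these data known. Symbols came from the study's supplementary tables.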

Additional observations from a re-analysis of the deposited data

Results flagged for a closer look

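Of the 97 members, 5 had a log2 TE that lay on 1 side of the median of all genes in all 3 replicates of FL and on the other side in all 3 replicates of NT, where 1.77% of all genes did. The named members were not a fair sample by TE, and TE holds the RNA-Seq values that chose the members, so nothing is read from this count. Of the 5, 4 had a symbol. Their differences, FL minus NT, were 2.30 for *Mkx*, 2.17 for *Kremen2*, 1.13 for *Wnt6* and -1.45 for *Amot*. By the limma interaction over all genes, *Amot* was called and the other 3 were not, which is a description for the same reason. Without replicate 3 of both tissues they were 2.24, 3.12, 1.58 and -1.97. In the mesoderm, where the members were not chosen, log2 TE was 0.11, -0.28, 0.11 and -0.50. In NT replicates 1, 2 and 3, *Kremen2* had 9, 9 and 35 Ribo-Seq reads and *Mkx* had 23, 20 and 4.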

How the results depend on the processing

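The count of members with higher RPFs in FL was 97 and stayed within 94 to 97 in every alternative, and the median RPF difference, 3.59, ranged from 3.50 to 3.84 when replicates were left out (3.84 without replicate 3 of both tissues). The calls on TE between tissues did not hold. For TE higher in FL, 0 became 3 with DESeq2 and ranged from 0 to 21 when replicates were left out (9 without FL replicate 3, 7 without NT replicate 3, 21 without replicate 3 of both). For TE higher in NT, 2 became 0 with edgeR, 0 with the replicate block, 3 with DESeq2, and ranged from 0 to 20 when replicates were left out (19 without FL replicate 3, 9 without NT replicate 3). Without replicate 3 of both tissues, 20.7% of all genes were called higher in FL and 22.3% higher in NT. For 1 replicate left out, the share of all genes was not counted, so those counts are not read as traits of the members. The cause was not tested. Libraries of NT and FL with the same number did not deviate in the same direction from their group means. The r was -0.29, -0.50 and -0.58 for Ribo-Seq and -0.02, -0.22 and -0.24 for RNA-Seq, so Ribo-Seq deviated in opposite directions. These values do not settle whether the numbers pair the tissues, which came from the same embryos. The main fit had no block, and the block changed no other count of members. In the mesoderm, the Ribo-Seq and RNA-Seq deviations correlated at 0.74, 0.58 and 0.57, and the count of TE-high members, 1, ranged from 1 to 2 when a replicate was left out, with 6 to 7 TE-low. *Piezo2* and *Scarf2* fell short of 3-fold there without replicate 1 and without replicate 2, at -1.55 and -1.52.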
